A study of Mus musculus with 6 samples.

Results

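Oxidative phosphorylation is carried out by 5 protein complexes of the inner mitochondrial membrane. Complexes I and II take electrons from NADH and succinate, complex III passes them to the small carrier cytochrome c, and complex IV hands them to oxygen. The proton gradient built on the way drives complex V, the ATP synthase. Most subunits are encoded in the nucleus and imported, while a small core of complexes I, III, IV and V is encoded by mitochondrial DNA; complex II, which is also an enzyme of the citrate cycle, is wholly nuclear. In granulosa cells, which line the ovarian follicle around the oocyte, mitochondria also house the first step of steroid synthesis, which the ovulatory signal increases.

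The nuclear genes described here were taken by biotype and symbol: protein-coding genes named Nduf, Sdha to Sdhd, Uqcr, Cox4 to Cox8, Cycs or Atp5. The rule took 93 of 54551 features of the deposited tables, 44 assigned to complex I, 4 to complex II, 8 to complex III, 1 for cytochrome c, 20 to complex IV and 16 to complex V. By name the rule also took 8 Ndufaf assembly factors of complex I and the ATP synthase coupling protein Atp5s, which are not subunits, and it left out Cyc1, the cytochrome c1 of complex III. By mean level over the libraries, 28 members stood above 100 FPKM, 46 between 10 and 100, 15 between 1 and 10 and 4 below 1. FPKM is the number of fragments per kilobase of gene, scaled for depth. It allows a rough comparison between genes. Its limits, a dependence on exon length that differed between libraries and some genes listed unusually low, are given below.

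RNA was measured in 6 libraries of granulosa cells from the ovaries of C57BL/6 mice of postnatal day 21. All groups had the same hormones: PMSG (5 IU) for 48 h, which makes follicles grow, and then hCG (5 IU), which acts like the natural surge that triggers ovulation, with collection 6 h later. The labels give 3 libraries as wild type and 3 as Gm12840-/-, a knockout of a long noncoding RNA gene. No untreated ovary or other time point was analysed here. The labels name neither the deleted part of Gm12840 nor the animals behind each library, so p-values measure the spread between these samples, which may be technical. No sort of the cells is stated, and in such bulk RNA fewer cells of a type and less RNA per cell cannot be told apart.

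Recovered depth was 16392098 to 19465847 reads a library. The targeted gene was not clearly lower in the libraries labelled knockout. Gm12840 stood at 1.83, 0.566 and 0.365 FPKM in the wild-type-labelled libraries and at 0.426, 0.611 and 1.45 FPKM in the knockout-labelled ones. These values rest on few reads, 17, 6 and 5 against 5, 7 and 14. Without both libraries numbered 3, its log2 fold change was -0.47 (adjusted p = 0.474 by limma). With all 6 libraries the result was as follows. An exact permutation test over the libraries (two-sided) gave p = 0.9, with 0.1 the lowest it can reach, and the log2 fold change was -0.03 (95% interval -0.91 to 0.84, adjusted p = 0.988 by limma). Directions below are therefore those of the labels, and values stand in the order of libraries 1 to 3 of each label. The granulosa markers were present, with 15 of 15 past the filter on low values and a summed level of 5429 to 13707 FPKM. Most of that sum was 1 gene, Inha, at 3973 to 10808 FPKM. One axis carried 83.3% of the variance over all tested genes, with the libraries labelled wild type 3, knockout 1 and knockout 2 on one side and those labelled wild type 1, wild type 2 and knockout 3 on the other. The library numbered 3 of each label thus lay with the first 2 libraries of the other label. Whether these labels were crossed was not tested; if they were, the signs and sizes of the fold changes between labels would differ from those printed. Values are given below with and without the libraries numbered 3.

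Promoter sequences were available for 75 of the 93 genes, from RefSeq (GRCm38.p6), as windows of 250 bases before to 50 after the gene's start. Nuclear genes of the respiratory chain are textbook targets of NRF1, ETS family factors (GABP among them) and YY1. A gene was counted if any of its windows held the letters, and 5 of the members had 2 or more windows. The letters GCATGCGC, part of the NRF1 site, were found on either strand in 13 of the 75 genes (17.3%), against 3.94% of 17492 protein-coding genes. The ETS core CCGGAAG, on either strand, was in 24% of these members against 12.9% of all genes, and the YY1 letters AAGATGGCG in 10.7% against 2.14%. At least 1 of these 3 motifs was in 32 of the 75 genes (42.7%), against 17.6% of all. The GC box GGGCGG (45.3% against 49.2%) and the CCAAT box CCAAT (45.3% against 42.3%) were near the share of all genes, and the cyclic AMP response element TGACGTCA, palindromic, was in 6.67% against 2.54%. The ETS and YY1 letters can overlap by AAG, and a match of letters is a description, not a measured binding site. The 250 bases before the start are shown for 4 genes that the results turn on. They are Atp5e, whose FPKM differed most between libraries, and Cox6a1, the most abundant complex IV gene among the 93 members. The others are Cycs, the gene of cytochrome c, and Sdhd, whose FPKM hardly differed. Capitals mark the letters of any of the 6 motifs on either strand.

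Atp5e, chr2:174464102-174464351, minus strand: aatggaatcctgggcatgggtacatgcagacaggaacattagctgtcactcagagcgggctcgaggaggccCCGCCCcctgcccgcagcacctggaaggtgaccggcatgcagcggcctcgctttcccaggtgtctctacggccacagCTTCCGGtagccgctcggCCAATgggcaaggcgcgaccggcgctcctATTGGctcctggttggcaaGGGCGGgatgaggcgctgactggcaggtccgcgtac
Cox6a1, chr5:115348959-115349208, minus strand: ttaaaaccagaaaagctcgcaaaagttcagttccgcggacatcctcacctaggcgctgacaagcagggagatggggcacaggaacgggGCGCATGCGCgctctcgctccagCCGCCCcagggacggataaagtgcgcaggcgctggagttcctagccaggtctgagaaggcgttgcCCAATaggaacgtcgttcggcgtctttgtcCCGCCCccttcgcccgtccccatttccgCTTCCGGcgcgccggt
Cycs, chr6:50566570-50566819, minus strand: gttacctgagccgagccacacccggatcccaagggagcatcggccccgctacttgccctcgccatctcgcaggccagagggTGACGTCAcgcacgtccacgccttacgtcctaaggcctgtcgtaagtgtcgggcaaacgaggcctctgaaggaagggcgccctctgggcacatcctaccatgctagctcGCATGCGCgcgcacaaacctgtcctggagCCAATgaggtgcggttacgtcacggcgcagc
Sdhd, chr9:50603850-50604099, minus strand: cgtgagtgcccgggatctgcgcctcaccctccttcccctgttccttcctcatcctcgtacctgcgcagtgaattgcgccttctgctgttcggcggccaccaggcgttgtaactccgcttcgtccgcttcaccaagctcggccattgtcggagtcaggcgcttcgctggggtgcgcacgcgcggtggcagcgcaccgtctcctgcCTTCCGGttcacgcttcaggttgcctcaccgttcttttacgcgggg

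The Atp5e window held an ETS core on the reverse strand 102 bases before the start, between CCAAT and GC boxes. The Cox6a1 window held the NRF1 letters on both strands, in an overlapping pair 162 and 160 bases before the start, and an ETS core 16 bases before it. The Cycs window held the cyclic AMP response element 169 bases and the NRF1 letters 60 bases before the start, and the Sdhd window an ETS core 46 bases before it. As a description, the median span between the highest and the lowest library was 1.55 on the log2(FPKM + 1) scale for the 13 tested members with the NRF1 letters and 1.74 for the 59 without. It was 1.81 with and 1.69 without the ETS core, 2.09 (8 genes) and 1.71 (64 genes) for the YY1 letters, and 1.31 (5 genes) and 1.74 (67 genes) for the cyclic AMP response element. For the GC box it was 1.65 with and 1.83 without, and for the CCAAT box 1.72 and 1.85.

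The first comparison was libraries labelled knockout against libraries labelled wild type, by limma on log2(FPKM + 1), with Benjamini-Hochberg adjustment over the 12495 genes with more than 1 FPKM in at least 3 libraries. Of the 93 members, 88 passed this filter. None of the 88 passed an adjusted p of 0.05, where 0% of all tested genes did, and none had an unadjusted p under 0.05, where 0.728% of all did. With recovered reads, limma-voom called 0 members too and 0% of all genes, with 73 of all genes and 0 members at an unadjusted p under 0.05. The smallest unadjusted p of a member was 0.204, for the assembly factor Ndufaf5, and adjusted p-values ran from 0.993 to 0.999. The labelled groups did not overlap for 1 member, Cox7c, against 3.53% of all genes. Log2 fold changes were below 0 for 85 of the 88 members, with a median of -0.34, where 55% of all genes were below 0, with a median of -0.04. The members' 95% intervals reached a median of 1.25 to either side, so a change of 2-fold in the median gene was not detectable with this spread. Rescaled to an equal sum of FPKM in each library, the median of all genes moved to 0.12 and 35.5% of them were below 0; the members' median was then -0.20, with 73 of 88 below 0, again under that of all genes. The lean toward lower values was not seen without the library labelled knockout 2, where the median was 0.01 and 38 of 88 members were below 0. When the slope of a library's values on exon length entered the fit as a covariate, an alternative chosen after the data had been seen, the median was 0.03 and 35 of 88 were below 0. Omitting other libraries gave medians of -0.10 (wild type 1 omitted), -0.23 (wild type 2), -0.71 (wild type 3), -0.28 (knockout 1) and -0.78 (knockout 3).

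**Figure D1:**
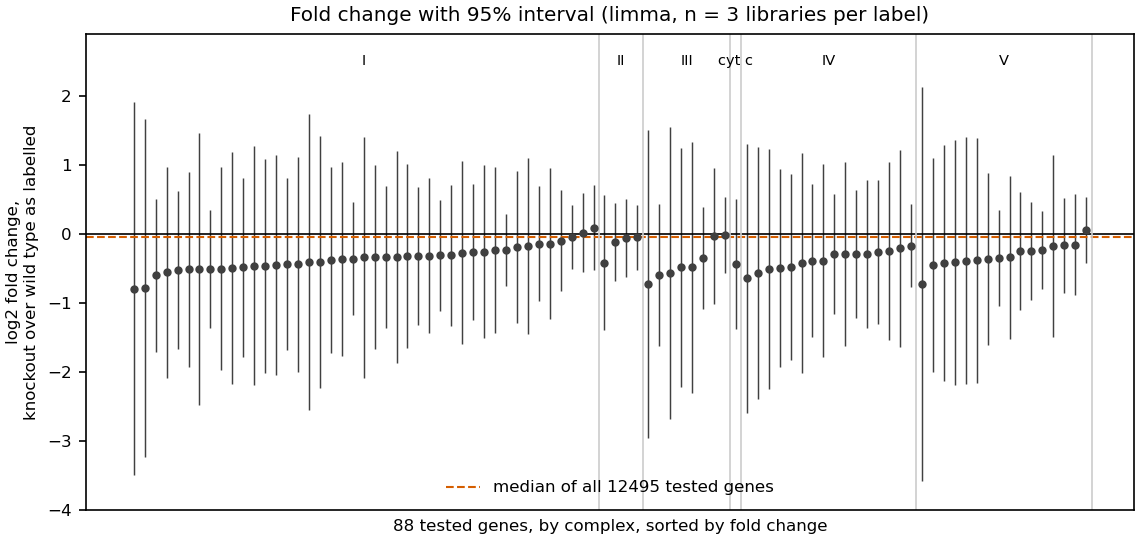
Log2 fold change (vertical axis, libraries labelled knockout over those labelled wild type, on the log2(FPKM + 1) scale) of the 88 tested genes, grouped by complex and sorted within it along the horizontal axis. Points are limma estimates from 3 libraries per label, lines 95% intervals, and the dashed line the median of all 12495 tested genes; every interval spans 0.

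Complex I was read first by its core subunits, which hold the flavin and the iron-sulfur clusters. Ndufv1, the subunit that binds NADH, stood at 146, 114 and 45.5 FPKM in the wild-type-labelled libraries and at 59.7, 28.7 and 156 FPKM in the knockout-labelled ones. The libraries labelled wild type 3, knockout 1 and knockout 2 were low and the other 3 high, so the labelled groups overlapped. Ndufs1, the largest subunit of the matrix arm, took the opposite order, with 6.19, 6.37 and 8.02 FPKM against 9.0, 8.53 and 5.08 FPKM, and had the most positive log2 fold change of complex I, 0.09 (95% interval -0.53 to 0.71, adjusted p = 0.993 by limma).

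Among the accessory subunits of complex I, the range over the libraries differed widely from gene to gene. Core and accessory subunits were not compared as groups. Ndufa2 stood at 839, 580 and 133 FPKM in the wild-type-labelled libraries and at 198, 62.4 and 1006 FPKM in the knockout-labelled ones, a 16.1-fold range. Its log2 fold change of -0.79 was the most negative of complex I, with an interval of -3.49 to 1.91. Ndufs6, a zinc-binding accessory subunit, spanned 14.2-fold, from 15.5 FPKM in the library labelled knockout 2 to 220 FPKM in that labelled knockout 3. Ndufb11, of the membrane arm, was the second most abundant, at 292, 212 and 84.5 FPKM against 120, 64.2 and 269 FPKM. By contrast the assembly factor Ndufaf4 ranged only from 5.88 to 7.96 FPKM and Ndufb4 from 16.7 to 25.3 FPKM. The 19 tested membrane arm subunits had a median log2 fold change of -0.37, the 16 of the matrix arm -0.32 and the 8 Ndufaf factors -0.39; none of the 43 passed the test. Ndufaf5, which adds a hydroxyl group to a complex I subunit during assembly, stood at 15.2, 15.0 and 8.76 FPKM against 7.53, 6.05 and 13.8 FPKM (log2 fold change -0.50, interval -1.35 to 0.35).

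Ndufs3, a core subunit of the matrix arm, was listed at 0 in all 6 libraries. It lies on chromosome 2 in a run of 7 neighbouring features listed at 0, from 90894634 to 91045729 in the deposited coordinates (mm10), with Kbtbd4, Ptpmt1, Celf1 and Rapsn among them. An unnamed feature on a patch scaffold, described in the tables by the 30 kDa subunit domain of NADH dehydrogenase, held 19, 29 and 28 reads in the wild-type-labelled libraries and 5, 11 and 35 in the knockout-labelled ones. The 0 is therefore given as listed and not as an absence of Ndufs3 RNA. In all, 18.8% of protein-coding genes were listed at 0 in every library.

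Complex II had the narrowest range of FPKM of the complexes over these 6 libraries. Sdhd, one of the membrane anchors, stood at 84.9, 98.1 and 85.5 FPKM in the wild-type-labelled libraries and at 86.1, 78.6 and 82.6 FPKM in the knockout-labelled ones. Sdhc, the other anchor, ranged from 16.3 to 19.7 FPKM, and Sdha, the flavoprotein that oxidizes succinate, from 36.6 to 51.2 FPKM. Sdhb, the iron-sulfur subunit, was the exception: 81.9, 80.5 and 44.5 FPKM against 47.7, 32.9 and 78.2 FPKM, with the same 3 libraries low as in complex I. Its log2 fold change was -0.41 (95% interval -1.39 to 0.57, adjusted p = 0.993 by limma), and that of Sdhc -0.05. The summed level of the 4 genes was 231, 246 and 194 FPKM against 200, 167 and 228 FPKM, a 1.47-fold range. As a share of the FPKM of all genes, they stood at 0.0463%, 0.0534% and 0.0637% against 0.0612%, 0.0570% and 0.0448%. On that scale the libraries labelled wild type 3, knockout 1 and knockout 2 were the highest. In FPKM, the median span of the complex II genes was 0.40 on the log2 scale. The median span was 1.73 for complex I, 1.93 for complex III, 1.86 for complex IV, 1.63 for complex V and 0.97 over all tested genes. With 4 genes in complex II, no test of this difference was made.

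**Figure D2:**
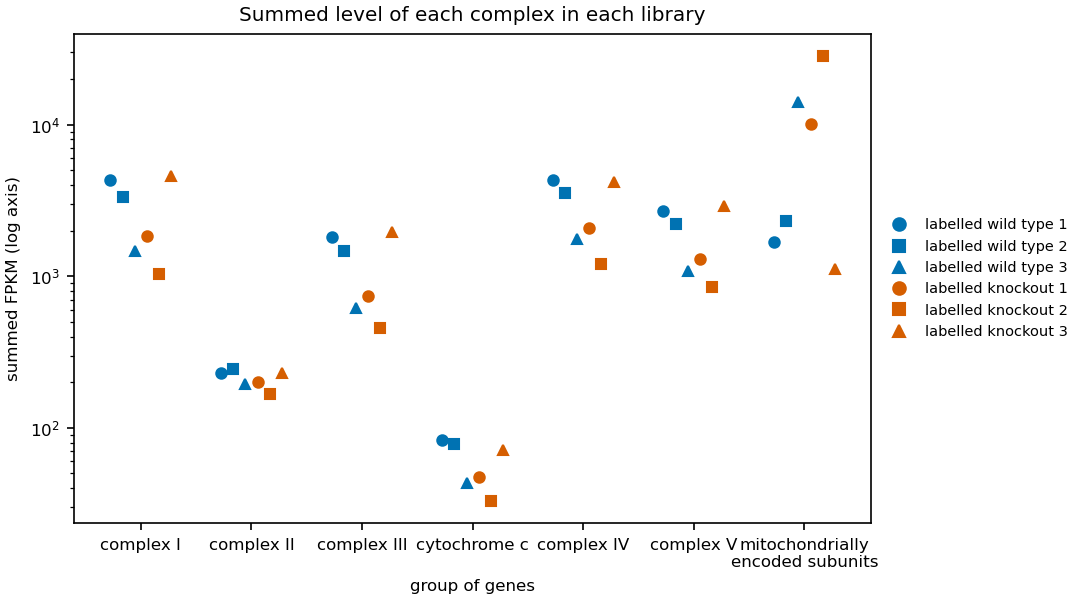
Summed FPKM (vertical log axis) of each complex, of cytochrome c and of the 13 mitochondrially encoded subunits (horizontal axis) in each of the 6 libraries, with 1 point per library, coloured by label and shaped by its number. The points of complex II lie between 167 and 246 FPKM, while those of complexes I, III, IV and V spread over 3.42- to 4.46-fold and the mitochondrially encoded subunits over 25.5-fold in the opposite order.

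In complex III the small subunits carried most of the level and most of the variation. Uqcr10 stood at 475, 375 and 142 FPKM in the wild-type-labelled libraries and at 171, 104 and 518 FPKM in the knockout-labelled ones. Uqcrh, the hinge protein that contacts cytochrome c1, stood at 429, 312 and 104 FPKM against 142, 84.3 and 425 FPKM, and Uqcrq had the most negative log2 fold change of the complex, -0.72, over a 9.53-fold range. Both were low in the libraries labelled wild type 3, knockout 1 and knockout 2. Uqcrfs1, the Rieske iron-sulfur protein, ranged less, from 72.4 to 140 FPKM, and Uqcrb from 52.4 to 65.4 FPKM (log2 fold change -0.01). Uqcrc2, a core protein, ran the other way, at 27.5, 36.6 and 52.0 FPKM against 47.2, 49.8 and 21.1 FPKM. Its partner Uqcrc1, present in equal number in the complex, was listed far lower, at 5.34, 6.07 and 1.41 FPKM against 1.72, 2.09 and 2.80 FPKM (log2 fold change -0.59, interval -1.61 to 0.44). The cause of that difference in level was not tested. Cyc1, which the rule left out, stood at 132, 136 and 92.1 FPKM against 102, 64.3 and 140 FPKM.

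Cytochrome c is encoded by Cycs, which stood at 82.9, 77.9 and 43.4 FPKM in the wild-type-labelled libraries and at 47.7, 32.8 and 71.3 FPKM in the knockout-labelled ones. The order of libraries was that of complex I. Its log2 fold change was -0.43 (95% interval -1.38 to 0.51, adjusted p = 0.993 by limma).

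Complex IV held the most abundant members. Cox6a1 stood at 1001, 867 and 490 FPKM in the wild-type-labelled libraries and at 565, 268 and 1015 FPKM in the knockout-labelled ones. Cox4i1, the regulatory subunit that contacts the core of the enzyme, stood at 992, 715 and 258 FPKM against 327, 150 and 978 FPKM, with the most negative log2 fold change of the complex, -0.64 (interval -2.60 to 1.31). The same 3 libraries were low in both. Cox5a and Cox5b, matrix-facing subunits, ranged from 27.9 to 103 FPKM and from 40.3 to 156 FPKM, and Cox5b had the smallest p of the complex (log2 fold change -0.48, adjusted p = 0.993 by limma). Cox7c was the one member whose labelled groups did not overlap. It stood at 149, 136 and 125 FPKM against 124, 118 and 122 FPKM, a gap between the nearest libraries that is small beside their spread, with a log2 fold change of -0.17 (interval -0.77 to 0.43). Rescaled to an equal sum of FPKM, its fold change was 0.00.

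Complex IV subunits come in isoforms, and the mix of isoforms differed little between libraries even where the totals differed by several fold. Cox4i2, the isoform of lung and of hypoxic cells, made up 0.716% to 0.981% of the summed FPKM of Cox4i1 and Cox4i2. Of the set of Cox7a1, Cox7a2 and the related Cox7a2l, Cox7a2l made up 51.5% to 55.7% and Cox7a2 43.4% to 47.5%. The heart and muscle isoform Cox7a1 made up 0.600% to 1.32%. Cox6b2, the testis isoform, made up 2.19% to 3.46% of its set. Cox6a2, the heart and muscle isoform, held 7 to 19 reads and was 0.0989%, 0.0702% and 0.110% of its set in the wild-type-labelled libraries against 0.194%, 0.359% and 0.178% in the knockout-labelled ones. These shares did not overlap between labels, but they rest on few reads and were one of many sets looked at. Cox8a was above 99.9% of its set, with 0 to 1 reads a library for Cox8b and 0 to 3 for Cox8c, and Cox7b2 had 0 to 2. Ndufa4l2, the hypoxia-induced relative of Ndufa4, ranged from 0.476% to 2.75%, lowest in the library labelled knockout 2 and highest in that labelled knockout 3.

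In complex V the F1 part, which makes ATP, had Atp5b at 407, 417 and 312 FPKM in the wild-type-labelled libraries and at 330, 240 and 404 FPKM in the knockout-labelled ones. Atp5c1, the rotating shaft, ranged from 74.9 to 118 FPKM. The small subunits of the same F1 part varied far more. Atp5d stood at 426, 345 and 118 FPKM against 163, 93.8 and 479 FPKM. Atp5e, the smallest, stood at 459, 293 and 57.6 FPKM against 89.4, 32.3 and 582 FPKM, an 18.0-fold range and the widest span of any member (log2 fold change -0.72, interval -3.57 to 2.13). Subunits of the same F1 part thus had RNA levels in a ratio that changed between libraries. Atp5e was above Atp5b in the libraries labelled wild type 1 and knockout 3 and below it in the other 4. Atp5a1, the partner of Atp5b, was listed at only 4.38 to 10.5 FPKM and had the smallest p of the complex (log2 fold change -0.34, interval -1.04 to 0.35). Why it was listed below its partner was not tested. Atp5s stood at 1.34 to 2.26 FPKM (log2 fold change 0.06).

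The c ring of the ATP synthase, through which protons pass, is built from identical proteins of 3 genes. Atp5g3 made up 62.3% to 73.0% of their summed FPKM, Atp5g2 19.9% to 32.6% and Atp5g1 5.11% to 7.13%. The share of Atp5g2 was highest, at 32.6%, in the library labelled knockout 2 and lowest in that labelled knockout 3, the reverse of the order of Atp5g3.

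**Figure D3:**
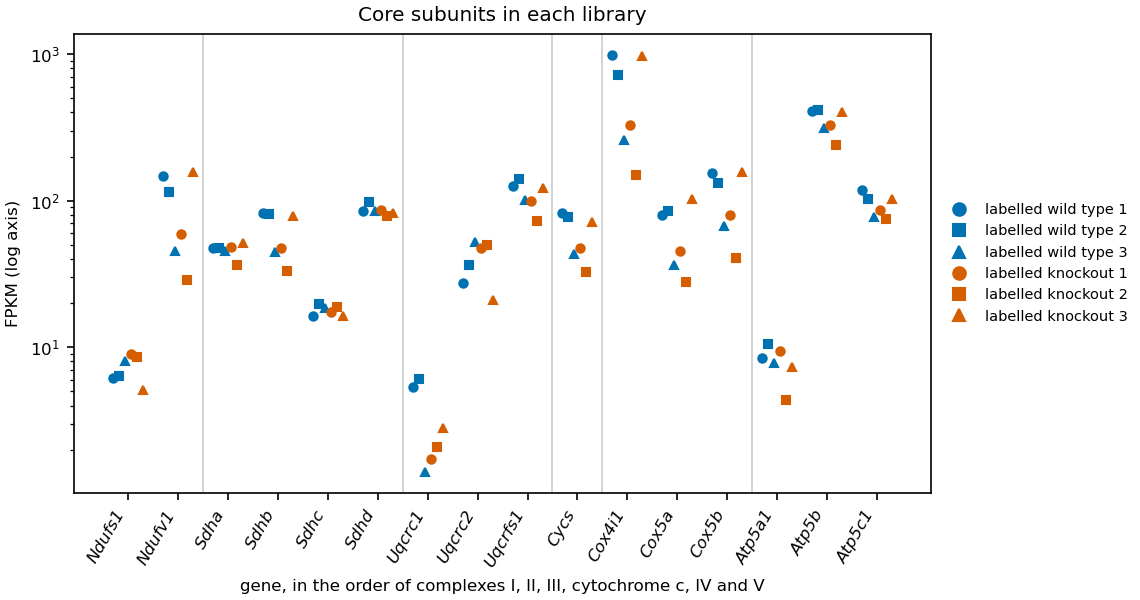
FPKM (vertical log axis) of core subunits of each complex (horizontal axis, in the order of complexes I, II, III, cytochrome c, IV and V) in each of the 6 libraries, coloured by label and shaped by number. Ndufv1, Cycs, Cox4i1, Cox5a and Cox5b are low in the libraries labelled wild type 3, knockout 1 and knockout 2, Ndufs1 and Uqcrc2 are high in them, and Sdha, Sdhc and Sdhd lie within 1.40-fold.

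Across the set, the libraries labelled wild type 3, knockout 1 and knockout 2 were all below the other 3 in 76 of the 88 tested members, where 34.9% of all genes had that order. They were all above the other 3 in 2 members, Ndufs1 and Uqcrc2, against 31.4% of all genes, and 10 members had neither order. The library labelled knockout 2 was the lowest in 78 members, and in 4611 of all 12495 genes. The members' median deviation from their own means was 0.66, 0.41 and -0.53 in the wild-type-labelled libraries and -0.31, -0.95 and 0.73 in the knockout-labelled ones, on the log2(FPKM + 1) scale, while that of all genes stayed within -0.05 to 0.04. Their share of the recovered reads was 1.77%, 1.53% and 0.931% against 1.10%, 0.706% and 1.84%. Their share of the FPKM of all genes was 2.71%, 2.36% and 1.70% against 1.91%, 1.28% and 2.74%. The FPKM of all genes summed to 497931, 460292 and 305059 against 326343, 292946 and 509742, so this sum was itself lowest in the libraries labelled wild type 3, knockout 1 and knockout 2. The total used to scale FPKM, relative to the recovered reads, was highest in those libraries. The shares of reads do not depend on that scaling. Between the highest and the lowest library, 69 members differed by more than 2-fold and 29 by more than 4-fold, where 48.3% of all genes differed by more than 2-fold. This order was noticed in the values and crosses the labels, so it is given as a description with no test.

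**Figure D4:**
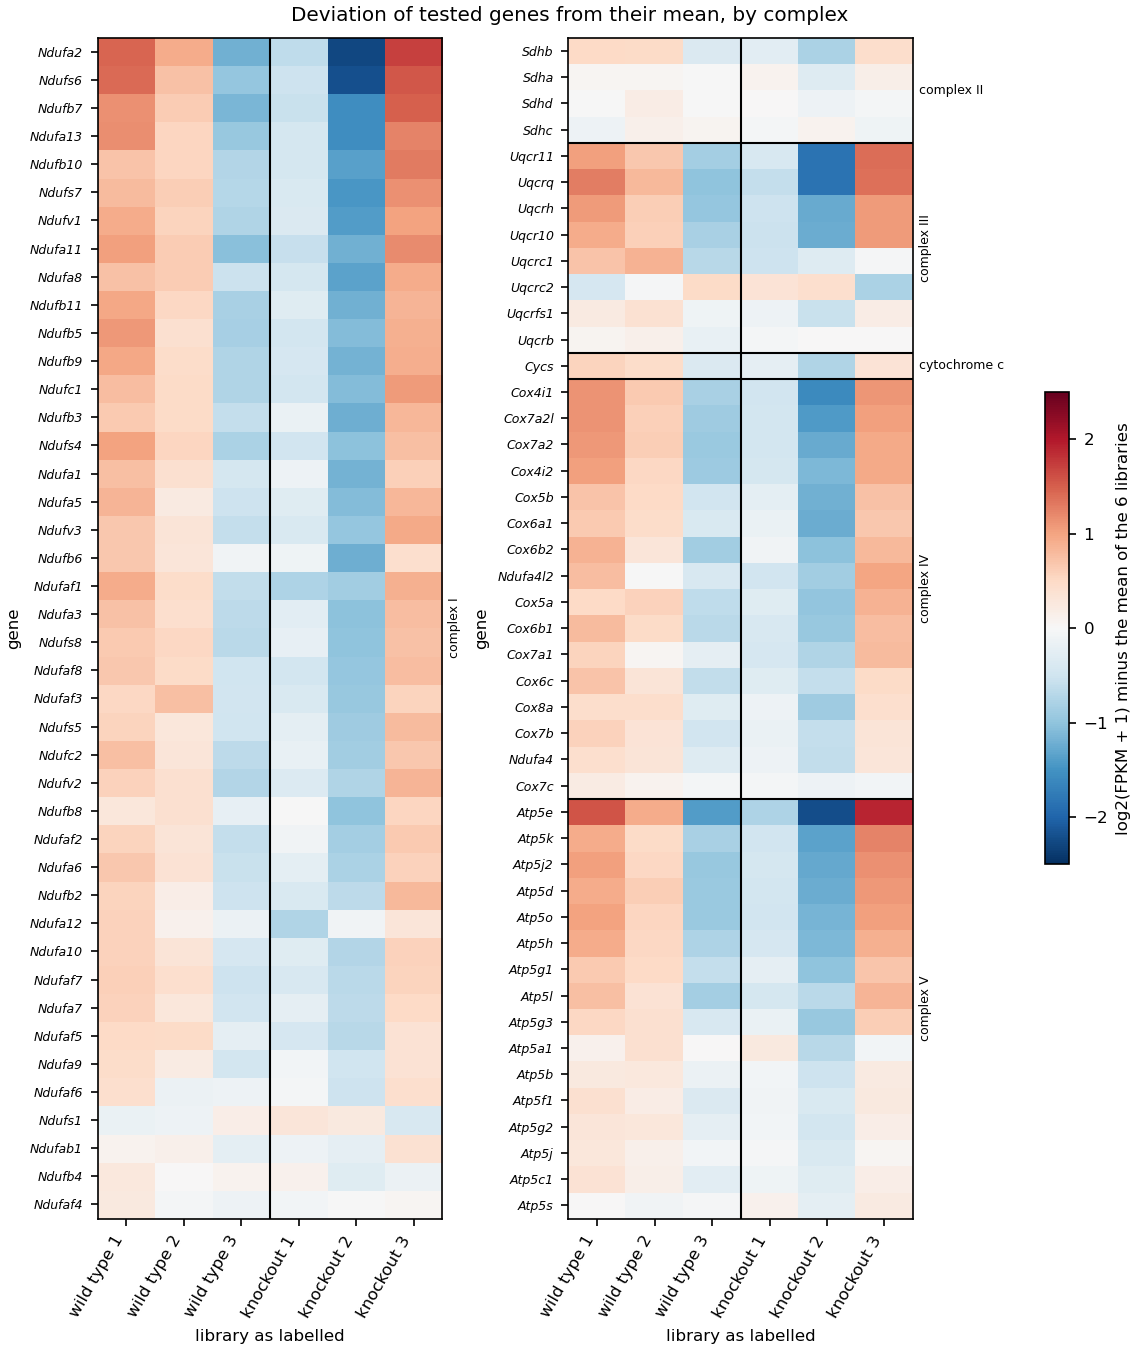
Deviation of 87 of the 88 tested genes (rows, by complex and then by span) from its own mean over the 6 libraries (columns, as labelled), as log2(FPKM + 1), red for above and blue for below. The columns of wild type 3, knockout 1 and knockout 2 lie below the other 3 in 75 of these rows, and the rows of Sdha, Sdhc and Sdhd are nearly white.

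Leaving out both libraries numbered 3, an alternative chosen after the data had been seen, left 2 libraries per label. Then 56 of the 88 members passed an adjusted p of 0.05 by limma, all lower in the libraries labelled knockout, with a median log2 fold change of -1.15 over the 88. In that fit 27.6% of all genes passed, 2042 of 3451 of them lower. Atp5e had a log2 fold change of -2.74 and Ndufa2 one of -2.64, and Cycs one of -1.0. The 32 members that did not pass included Sdha, Sdhc and Sdhd, Atp5b, Atp5c1, Ndufs1, Uqcrc2 and Cox7c. These libraries were left out because of their own values, so this count depends on that choice.

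The 13 subunits encoded by mitochondrial DNA ran in the opposite order. Their summed level was 1688, 2321 and 14093 FPKM in the wild-type-labelled libraries and 10159, 28374 and 1114 FPKM in the knockout-labelled ones. The ratio of the summed nuclear subunits to these was 7.91, 4.63 and 0.363 against 0.608, 0.130 and 12.4. Most of the mitochondrial sum came from mt-Co1 and from mt-Cytb, at 195, 312 and 2868 FPKM against 2046, 5809 and 115 FPKM. Some of the 13 were listed very low, with mt-Atp8 at 0, 0 and 40 reads against 9, 4 and 0. The ratio is therefore one of listed levels, not a measured balance of nuclear and mitochondrial RNA. mt-Co1, a catalytic subunit of complex IV, stood at 814, 1289 and 6423 FPKM against 4866, 12115 and 456 FPKM, while Cox4i1 beside it in the enzyme ran the other way. mt-Co2 and mt-Co3 did not follow mt-Co1, ranging from 62.5 to 135 FPKM and from 51.3 to 98.3 FPKM. None of the 13 passed the test, and 10 had a log2 fold change above 0, with a median of 0.71.

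Other genes of the pathway were read from lists in the same fit, and none of them passed the test. Of 37 tested assembly factors of the respiratory complexes outside the set, 28 were below 0, with a median log2 fold change of -0.17. Of 17 citrate cycle genes, 13 were below 0, with a median of -0.07, and their summed level ranged from 429 to 602 FPKM (1.40-fold). Of 16 tested regulators of mitochondrial gene expression, 8 were below 0, and their summed level ranged from 113 to 117 FPKM. As a share of the FPKM of all genes, the regulators stood at 0.0233%, 0.0253% and 0.0380% against 0.0346%, 0.0390% and 0.0230%. The citrate cycle genes stood at 0.121%, 0.126% and 0.158% against 0.153%, 0.146% and 0.112%. Both shares were highest in the libraries labelled wild type 3, knockout 1 and knockout 2. In FPKM, the members' order of libraries was found in 4 of the 16 regulators and the opposite order in 5. Tfam, which packages and transcribes mitochondrial DNA, stood at 12.9, 12.6 and 10.1 FPKM against 9.83, 7.21 and 12.4 FPKM, and Nrf1 at 7.78, 7.69 and 5.84 FPKM against 5.36, 4.96 and 8.11 FPKM, both in the members' order. Gabpa, the DNA-binding subunit of GABP, ran the opposite way, at 4.26, 4.83 and 8.99 FPKM against 8.16, 13.1 and 3.94 FPKM, and so did Yy1, at 15.3, 15.4 and 19.9 FPKM against 19.1, 19.6 and 15.0 FPKM. Mitochondrial ribosomal proteins had the members' order in 67 of 76 tested genes, with a median log2 fold change of -0.34, and cytosolic ribosomal proteins in 77 of 81, with -0.42. The order was thus also common outside oxidative phosphorylation.

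The dependence of the values on exon length moved with the same order. The slope of each library's deviations on log2 exon length was -0.13, -0.08 and 0.11 in the wild-type-labelled libraries and 0.04, 0.19 and -0.12 in the knockout-labelled ones, so short genes were low where the members were low. Members are short, with a median exon length of 1688 nt against 3639 nt over all tested genes. Among genes under 1000 nt, the median deviation in the library labelled knockout 2 was -1.20 for 21 members and -0.82 for 321 other protein-coding genes. Among genes of 4000 nt or more it was -0.53 for 11 members and 0.27 for 5603 others. After each library's dependence on length and GC content was removed by local regression, the members' medians were 0.36, 0.21 and -0.33 against -0.21, -0.54 and 0.37, in the same order and smaller, and those of complex II were within -0.06 to 0.04. With the slope on length as a covariate in the fit, the members' median log2 fold change between labels was 0.03, with 35 of 88 below 0, against -0.34 and 85 of 88 without it. Across the 88 members, which share libraries and depth, the span had a Pearson r of -0.32 with log2 exon length and 0.46 with GC content, given as descriptions.

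**Figure D5:**
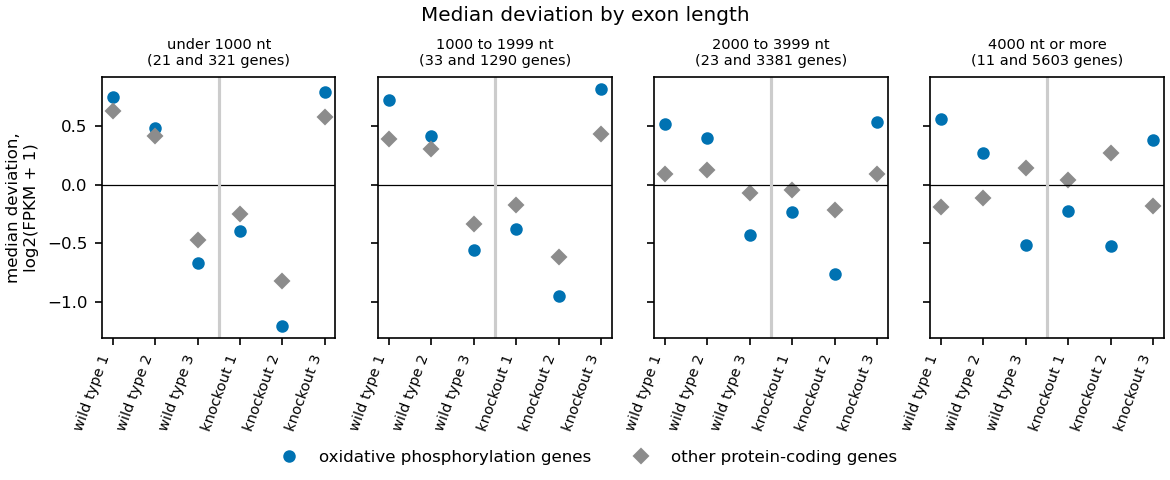
Median deviation from each gene's own mean (vertical axis, log2(FPKM + 1)) in each library (horizontal axis) for the tested oxidative phosphorylation genes and the other protein-coding genes, in 4 panels by exon length. Both sets lie on the same side of 0 in every library below 4000 nt, and at 4000 nt or more the 11 members keep those sides while the 5603 other genes lie on the opposite ones.

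Erythroid genes had the members' order of libraries as well. The 6 erythroid genes summed to 4455, 2793 and 613 FPKM in the wild-type-labelled libraries and to 756, 474 and 3512 FPKM in the knockout-labelled ones, and all 5 that were tested had it. Leukocyte genes had it in 0 of 5 tested, and summed to 47.0, 50.1 and 31.7 FPKM against 47.2, 31.8 and 41.1 FPKM. Of 9 tested oocyte genes 6 had it, with summed levels of 233 to 461 FPKM. The 15 granulosa markers had it in 7 genes. The 8 tested stromal and muscle genes had it in 0, with all 8 log2 fold changes above 0 and a median of 0.50. The part of length, GC content, RNA quality or other cells in the members' order was not tested beyond the corrections given here.

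Some members share reads with other features. Exon bases of 32 members overlap another annotated gene, 12 of them over more than 10% of their length, and Ndufaf2 shares 65.6%. The kit does not mark strand, so such reads cannot be told apart. Near-identical processed pseudogenes can also take reads: Ndufab1-ps stood at 18.3, 14.5 and 8.03 FPKM in the wild-type-labelled libraries and at 11.8, 14.3 and 15.4 FPKM in the knockout-labelled ones, above Ndufab1, the acyl carrier protein of complex I, which ranged from 4.46 to 7.43 FPKM. The pseudogene is 468 nt long and held 82 to 127 reads a library, while Ndufab1 has 6883 exon bases. FPKM divides reads by length, so the higher FPKM of the pseudogene does not mean that it held more reads. How many reads of Ndufab1 the pseudogene took was not tested, so the level of Ndufab1 is uncertain.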

How the data were processed

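RNA of granulosa cells was sequenced from TruSeq libraries, per the labels' protocols; the submitters' processing notes name HISAT2 2.0.5 and the mm10 build. For each library the authors deposited a table of FPKM values. How reads were counted and scaled, and on which annotation release, is not given in the sources used here. FPKM times gene length came in whole multiples of 1 step per library for 100% of values, within 0.01 reads. Reads were recovered from this step (16392098 to 19465847 a library). The step also gives the total by which each library was scaled. Divided by the recovered reads, that total was 0.894, 0.939 and 1.12 in the wild-type-labelled libraries and 1.12, 1.12 and 0.904 in the knockout-labelled ones. At an equal share of reads, FPKM was thus lower in the libraries labelled wild type 3, knockout 1 and knockout 2.

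Limma 3.58.1 (R 4.3.3, variance trend) was run on log2(FPKM + 1) for the 12495 genes above 1 FPKM in at least 3 libraries, with two-sided p-values adjusted by Benjamini-Hochberg at 0.05. This scale understates changes of low genes. Gm12840 fell below the filter and was taken from the fit without one, over features with reads. The code was tested on simulated data. Libraries of 1 label differed beyond sampling noise. Replicate numbers did not pair the libraries (correlations -0.42, -0.67 and -0.89).

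The members and lists were chosen with earlier results of these data known. Named were the core subunits, isoform sets, and the highest and lowest members of each complex. Also named were those with the smallest p and extreme fold changes, members without overlap between labels, and otherwise the smallest p of each list. Ndufs6, Ndufaf2, Ndufaf4, Ndufab1 and its pseudogene, Ndufb4, Cyc1, Gabpa and Yy1 were picked after their values were seen. So were mt-Co1 to mt-Co3, mt-Cytb, mt-Atp8, Inha and the promoters shown. Alternatives were pseudocounts, filters, 2 scalings, limma-voom, a replicate block, a fit to protein-coding genes and the omission of each library. Added after seeing the data were leaving out both libraries numbered 3, the length slope as a covariate and the removal of length and GC trends. One member is not reported here by name. Exon overlaps used GENCODE M21.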

Additional observations from a re-analysis of the deposited data

Results flagged for a closer look

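One value lies outside the genes compared here. The unnamed feature on a patch scaffold that the tables describe by the 30 kDa subunit domain of respiratory-chain NADH dehydrogenase held 127 reads over the 6 libraries, where Ndufs3 itself was listed at 0. No control library exists for this signal, and it is above the limit of 3 reads that a count of 0 allows. It was not used in any comparison, and its share of Ndufs3 reads was not tested.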

How the results depend on the processing

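No member passed the threshold under the pseudocounts of 0.1 and 0.5, the filters, both scalings, limma-voom, protein-coding genes only, the length and GC settings, or without any 1 library (range 0 to 0). With the replicate block, in a design whose numbers do not pair the libraries, 0 members and 0 genes were called, and the members' median stayed at -0.34. Without both libraries numbered 3, 56 members and 3451 genes were called, with a median of -1.15, and 9 of 15 members with a printed fold change passed. With the length slope as a covariate, 1 gene was called and the members' median was 0.029. Leaving out 1 library at a time moved this median from -0.78 to 0.015. Gm12840 changed sign without passing the threshold: 0.086 at an equal sum of FPKM, 0.0047 at recovered totals, 0.019 by limma-voom, and -0.27 to 0.28 without 1 library. Without both libraries numbered 3 it kept its sign, at -0.47, and did not pass either.

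Single members also changed sign without passing the threshold. With the length slope, Ndufa2 stood at 0.098, Ndufs1 at -0.041, Uqcrq at 0.0096, Uqcrb at 0.021 and Atp5e at 0.22. After removal of length and GC trends, Ndufs1 stood at -0.076, Sdhc at 0.055 and Uqcrb at 0.043. At an equal sum of FPKM, Sdhc stood at 0.12, Uqcrb at 0.16 and Cox7c at 0.0043, and at recovered totals Sdhc at 0.033 and Uqcrb at 0.072. Uqcrb stood at 0.023 by limma-voom. Without both libraries numbered 3, Sdhc stood at 0.013 and Atp5s at -0.039. Leaving out 1 library gave ranges of -1.84 to 0.15 for Ndufa2, -0.039 to 0.32 for Ndufs1, -0.12 to 0.0061 for Sdhc, -1.59 to 0.024 for Uqcrq, -0.11 to 0.048 for Uqcrb, -0.96 to 0.00047 for Cox5b, -1.86 to 0.20 for Atp5e and -0.041 to 0.20 for Atp5s. The cause of these changes was not tested. Depth was not the limit for most members, whose spread between libraries far exceeded counting error; it limits Cox6a2, Cox7b2, Cox8b and Cox8c. With 3 libraries per label, an exact test of 1 value cannot go below 0.1.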
